A study of Mus musculus with 6 samples.

Results

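The cathepsins, 10 genes chosen by their symbols from a bulk RNA-seq table of 24908 genes, were described in the mouse prostate with and without a MYC transgene. The choice was made with earlier results in view: the near-zero values of CTSC in every MYC library selected the topic, so that the genotype difference of CTSC is given as a description. All 10 were found in the table, which lists symbols in capitals, and all 10 reached a mean of 1 FPKM (fragments scaled by transcript length and by the mapped reads of the library), the minimum for the 12361 genes compared. The study set a mouse with prostate cancer initiation driven by MYC against an unaffected littermate. A wild-type (WT) mouse and a Hi-MYC mouse (MYC) each gave 1 library of the anterior (AP), 1 of the dorsolateral (DLP) and 1 of the ventral lobe (VP), 6 libraries in all. The MYC mouse was heterozygous for human c-MYC under the ARR2Pb promoter, a probasin promoter active in prostate epithelium. Both were males of the FVB strain, 12 weeks old and on the same purified diet, and the RNA came from enzymatically dissociated cells of each lobe. With 1 mouse per genotype no test of genotype was possible, and a difference between genotypes cannot be told apart from one between these 2 mice. In bulk RNA, fewer cells of a type and less RNA per cell cannot be told apart either.

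Cathepsins are proteases of the endosome and lysosome, named by letter and not by mechanism. CTSB, CTSC, CTSH, CTSK, CTSL, CTSS and CTSZ are cysteine proteases of the papain family, CTSD and CTSE are aspartic proteases, and CTSA is a serine carboxypeptidase. They are made as inactive precursors and matured in acid compartments, and the cysteine members are held in check outside them by cystatins. CTSC, also called dipeptidyl peptidase I, removes dipeptides from the amino terminus. In this way it activates serine proteases of granules in neutrophils, mast cells and cytotoxic lymphocytes. CTSS is used by macrophages and other antigen-presenting cells to trim the invariant chain of MHC class II.

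Several facts of the libraries touch these genes. Low values of single-exon genes fell in steps that gave depths of 25.5 M mapped reads (WT AP) to 50.2 M (MYC AP). The entry MYC, which may hold reads of mouse and human transcripts, had 200.6 to 230.0 FPKM in the WT lobes and 230.9, 586.1 and 1696 FPKM in MYC AP, DLP and VP. The luminal keratin KRT8 had at least 387.9 FPKM in every library. Most macrophage genes were higher in MYC DLP and MYC VP, and the secretion gene SVS4 of the seminal vesicle, an organ beside the AP, had 292.5 FPKM in MYC AP and is listed at 0 in each WT lobe. Their part in the results was not tested.

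Among the cathepsins, CTSC was the one lower by at least 2-fold in MYC in each lobe, and none of its relatives followed it down by that much. CTSC (chromosome 7, 88278024 to 88315861 in GRCm38) had 9.13, 5.67 and 2.86 FPKM in AP, DLP and VP of the WT mouse. In the MYC mouse it had 0.00751 FPKM in DLP and 0.00636 in VP and is listed at 0 in AP. Every WT library was above every MYC library, as for 3.06% of the genes compared. For CTSA and CTSZ every MYC library was above every WT library, as for 10.7%. Of the 10 members, 6, 8 and 7 were higher in MYC in AP, DLP and VP, beside 8206, 6618 and 6582 of the 12361 genes compared. Among the members other than CTSC, CTSS had the largest ratio in DLP and VP. On the log2 ratio, log2 of (FPKM + 1) in MYC over (FPKM + 1) in WT, which also serves for every count at 2-fold, CTSC stood at -3.34 in AP, -2.73 in DLP and -1.94 in VP. This scale understates the difference, since the pseudocount of 1 far exceeds the MYC values.

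**Figure D1:**
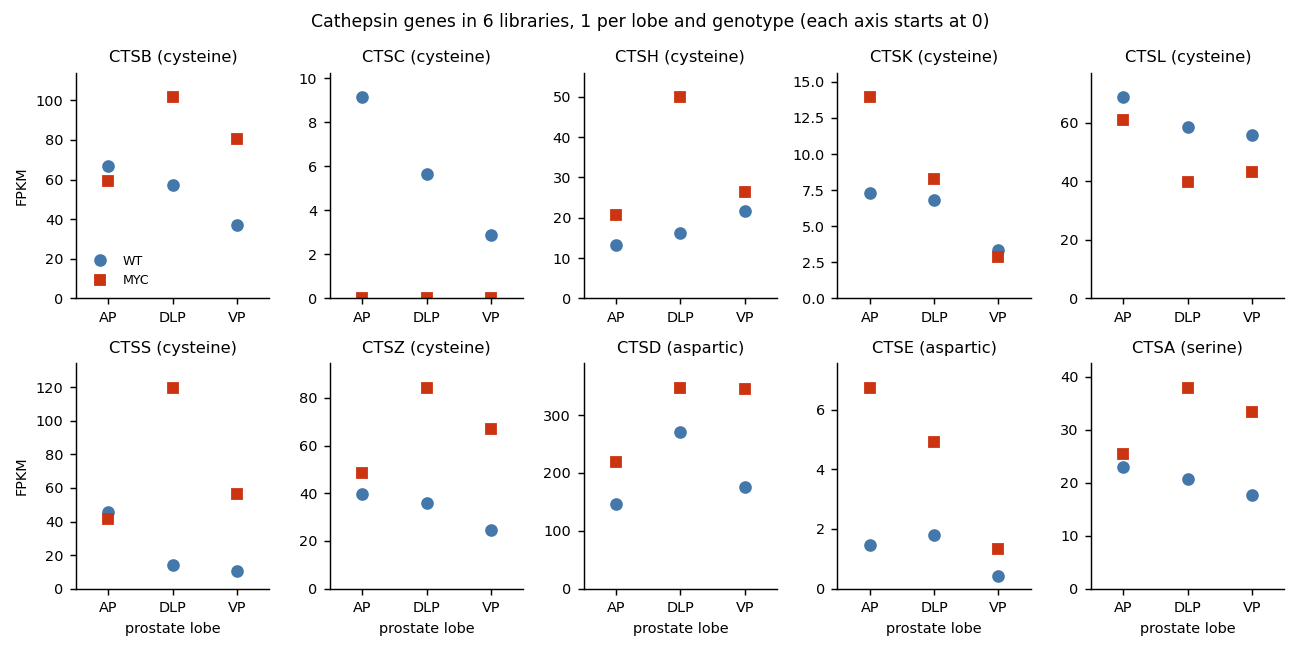
FPKM (vertical axes, linear, each starting at 0) of the 10 cathepsins by lobe (horizontal axes), with circles for WT and squares for MYC and 1 library per point. CTSC lies at the floor in the 3 MYC libraries, while CTSS reached 119.9 FPKM in MYC DLP against 14.1 in WT DLP.

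In reads, the CTSC signal of the MYC mouse was at the limit of the data. Its values in MYC DLP and MYC VP, multiplied by the depths of their libraries, differed by 0.0848%, as they would if both held the same small number of reads. If that number is 1, the gene would have an effective length of 3826 bases, against 3209 bases for its longest GENCODE transcript. Taken as 1 read each and with that length, they stand against 1024 reads in WT DLP and 543 in WT VP. The ratio of WT to MYC was then 755 in DLP (exact 95% Clopper-Pearson interval 135 to 29849) and 450 in VP (80.4 to 17808). With the longest transcript the WT reads were 805 and 427 and the intervals 106 to 23471 and 63.2 to 14011. All of these cover counting error of these libraries and not variation between mice. No ratio is given for AP, where CTSC is listed at 0.

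A gene next to CTSC on the chromosome had the same pattern. RAB38, a small GTPase that sorts cargo to melanosomes and other lysosome-related organelles, is the next protein-coding gene, 114 kb beyond the end of CTSC. RAB38 had 1.11, 1.56 and 2.02 FPKM in AP, DLP and VP of the WT mouse and is listed at 0 in all 3 MYC libraries. The genotypes therefore did not overlap for RAB38 either, as was the case with WT the higher for 2.18% of all genes in the table. In WT its order over the lobes ran opposite to that of CTSC, being highest in VP where CTSC was lowest. Its mean is under 1 FPKM, so that it is not among the genes compared. From RNA of 1 mouse, a difference in transcription of this region and a difference in its DNA carried by that mouse cannot be told apart.

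Of all genes in the table, 10876 had at least 1 FPKM in each WT lobe. Among these, 2 had a lowest WT value at least 10 times their highest MYC value, and they were CTSC and RAB38. Both meet the WT minimum through the mouse in which they are high, and the low MYC values of CTSC had selected it, so this count is a description of where CTSC stands and no support for its difference. At 4 times there were again 2, and at 2 times there were 5, the others being CRELD2, DERL3 and XLR3A. In the opposite direction, 10 of 10939 genes met the 10-fold criterion, and 1 of them, FOLH1, lies on the other side of CTSC. FOLH1, which encodes prostate-specific membrane antigen, ends 1502 kb before CTSC starts. It had 0.0143 FPKM in WT AP, is listed at 0 in WT DLP and had 0.0440 in WT VP, against 20.1, 63.1 and 2.24 FPKM in AP, DLP and VP of the MYC mouse.

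RefSeq places 55 other genes within 2 Mb of CTSC, of which 35 are in the table and 17 of those, mostly olfactory receptor genes, are listed at 0 in every library. Between FOLH1 and CTSC lie NOX4 at 0.0754 to 1.27 FPKM, TYR at no more than 0.00530 FPKM, GRM5 listed at 0 throughout and the receptor genes VMN2R77, VMN2R78 and VMN2R79. Beyond RAB38 the first gene in the table is TMEM135, whose start is 862 kb from that of CTSC. TMEM135 had 8.01, 10.22 and 10.78 FPKM in WT AP, DLP and VP and 10.80 to 11.27 FPKM in the MYC lobes. Beside CTSC and FOLH1, 7 genes of the window reached a mean of 1 FPKM (TMEM135, FZD4, PRSS23, HIKESHI, EED, 2310010J17RIK and PICALM), and they had log2 ratios between -0.76 and 0.82 over the lobes. The non-coding E230029C05RIK, 1713 kb beyond CTSC, had 0.523, 0.520 and 0.0597 FPKM in AP, DLP and VP of the WT mouse and 1.21, 1.79 and 0.834 in MYC, so that its genotypes did not overlap, with MYC the higher, as for 7.60% of all genes in the table. Every MYC library was also above every WT library, by small margins, for TMEM135 and for EED. EED had at most 14.16 FPKM in WT and at least 14.27 in MYC. The low genes ME3, CCDC81, CCDC83, SYTL2 and AI314278 complete the window on that side.

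**Figure D2:**
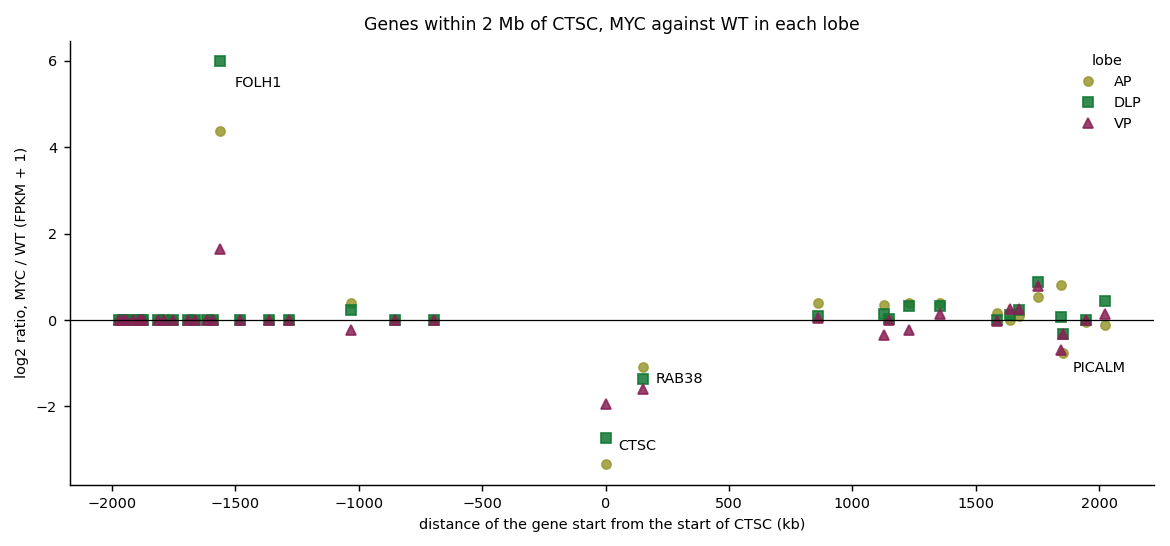
Log2 ratio of MYC against WT (vertical axis, FPKM + 1) of the genes in the table within 2 Mb of CTSC, placed by the distance of their start from that of CTSC in kb (horizontal axis), with 1 point per lobe. CTSC and RAB38 lie below 0 and FOLH1 above 0 in the 3 lobes, and the 7 others that reached a mean of 1 FPKM lie between -0.76 and 0.82.

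The genes most like CTSC over the 6 libraries, by Pearson's r of log2(FPKM + 1) among the genes compared, were CCDC9 (r = 0.971), SF1 (0.971), VMP1 (0.963), AARS (0.963) and POLR3D (0.960). The libraries share 2 mice, so r is a description of likeness over these 6 points. None of these genes approached the size of the CTSC difference. AARS, alanyl-tRNA synthetase, had 44.5, 37.5 and 36.6 FPKM in WT AP, DLP and VP and 23.2, 19.4 and 17.7 FPKM in MYC, and VMP1, a membrane protein of autophagy, had log2 ratios from -0.79 in AP to -0.38 in VP.

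Granule serine proteases, a class that includes substrates of CTSC, differed among themselves. Those of neutrophils were at or near 0 in both mice, with ELANE listed at 0 in every library and PRTN3 at no more than 0.0376 FPKM. GZMB, a granzyme of cytotoxic lymphocytes, had 6.32, 9.03 and 8.01 FPKM in WT AP, DLP and VP and 5.80, 24.6 and 15.7 FPKM in MYC. The mast cell proteases MCPT4, TPSAB1 and TPSB2 were highest in the AP of both mice. In WT AP and MYC AP, MCPT4 had 8.26 and 14.4 FPKM, TPSAB1 had 8.86 and 5.07, and TPSB2 had 6.52 and 6.44. In MYC VP, MCPT4 and CMA1, the mast cell chymase, were listed at 0, against 1.04 and 0.569 FPKM in WT VP. Of the 7 granule protease genes compared (of a list of 13), 3 were at least 2-fold higher in DLP, beside 6.46% of all genes compared, 2 were at least 2-fold lower in VP, beside 5.95%, and none passed in AP. These are transcript levels and say nothing of whether the enzymes were processed.

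CTSS gave the largest differences of the family in the other direction. It had 45.8, 14.1 and 10.2 FPKM in WT AP, DLP and VP and 41.7, 119.9 and 56.5 FPKM in MYC AP, DLP and VP. It was higher in MYC in DLP and VP and about level in AP, where the WT value was the higher of the pair. The FPKM ratio was 8.49 in DLP (exact 95% interval of counting error 7.87 to 9.17) and 5.55 in VP (5.08 to 6.09), with log2 ratios of 3.00 and 2.36, while AP had -0.13. CTSS held the seventh place of the family by FPKM in WT DLP and the second in MYC DLP.

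Macrophage genes were high in the same libraries. The C1q genes C1QA, C1QB and C1QC, complement components made by tissue macrophages, summed to 108.9, 42.6 and 22.9 FPKM in WT AP, DLP and VP and to 103.9, 239.9 and 154.4 FPKM in MYC. From high to low, CTSS ordered the libraries as MYC DLP, MYC VP, WT AP, MYC AP, WT DLP and WT VP, and 8 of the 15 macrophage genes compared gave that same order, as did CTSB and 0.510% of all genes compared. All 15 were at least 2-fold higher in MYC DLP, beside 6.46% of all genes, 11 in MYC VP, beside 6.88%, and none in MYC AP, beside 2.05%. Their median log2 ratios were 1.92 in DLP, 1.34 in VP and -0.03 in AP. MRC1 was lower in MYC VP (log2 ratio -0.40). CD163, too low to be compared, had log2 ratios of -0.36, -0.02 and -0.07 in AP, DLP and VP. The summed level of the 16 macrophage genes in the table was between 82.3 and 302.3 FPKM in WT and between 275.4 and 675.6 in MYC, and none of them is listed at 0. LYZ2, the lysozyme of macrophages, had 11.8 FPKM in WT DLP and 131.6 in MYC DLP. Relative to the C1q sum, CTSS was 0.420, 0.332 and 0.445 in WT AP, DLP and VP and 0.401, 0.500 and 0.366 in MYC. Over single macrophage genes the steadiness of that ratio differed: the highest library value of CTSS over the gene was 1.26 times the lowest for FCER1G, 1.40 for C1QB, 3.46 for CD68 and 8.44 for MRC1, with a median of 2.52 over the 15 genes.

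**Figure D3:**
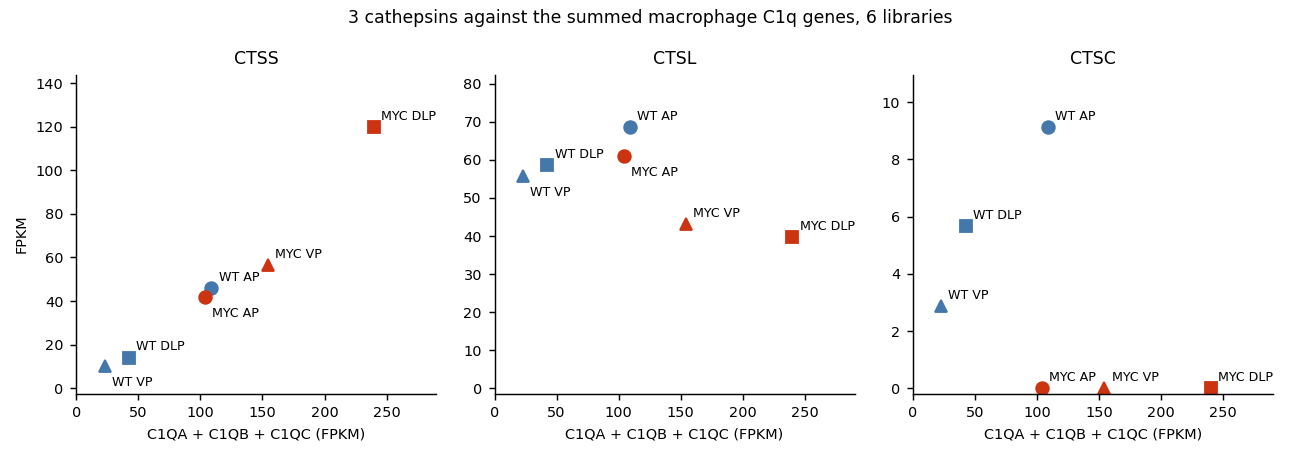
FPKM (vertical axes) of CTSS, CTSL and CTSC against the summed FPKM of C1QA, C1QB and C1QC (horizontal axes) in the 6 libraries, with blue for WT and red for MYC and circles, squares and triangles for AP, DLP and VP. CTSS is highest where the C1q sum is highest, in MYC DLP, and CTSL is lowest there. CTSC, which was selected by its low MYC values, is at the floor in the 3 MYC libraries.

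For CTSC, the low MYC values had selected the gene, so its low ratio to the C1q sum in MYC was set by that choice and is a description. In WT its ratio to the C1q sum was 0.0839, 0.133 and 0.125 in AP, DLP and VP, and in the MYC libraries CTSC was at or near 0 at C1q sums from 103.9 to 239.9 FPKM. The class II genes that CTSS acts beside, CD74 (the invariant chain) among them, were higher in MYC DLP as well. CD74 had 470.8, 228.8 and 108.2 FPKM in WT AP, DLP and VP and 299.4, 856.5 and 205.0 FPKM in MYC. Of the 6 class II pathway genes compared, 5 were at least 2-fold higher in DLP, beside 6.46% of all genes, and 2 in VP (H2-AA and H2-AB1), beside 6.88%.

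CTSZ and CTSB, cysteine carboxypeptidases found in most cells and abundant in macrophages, were higher in MYC DLP and VP to a lesser extent. CTSZ had 39.7, 35.9 and 24.6 FPKM in WT AP, DLP and VP and 48.4, 84.4 and 67.0 FPKM in MYC, which is higher in each lobe and 2.35-fold in DLP and 2.73-fold in VP. CTSB had 67.0, 57.2 and 37.1 FPKM in WT and 59.1, 101.5 and 80.3 FPKM in MYC, with the WT value the higher in AP. The VP log2 ratio of CTSB, 1.09, was just past the 2-fold threshold and was 0.99 with scaling by medians of ratios and 0.86 with equal sums. The ratio of CTSZ to the C1q sum was 1.07 in WT VP and 0.434 in MYC VP, and that of CTSB was 1.62 and 0.520, but other macrophage genes gave other readings, with CTSZ over CD68 at 1.67 and 1.73. Over the 15 macrophage genes singly, the ratio was higher in MYC VP than in WT VP for 6 in the case of CTSZ, 3 for CTSB and 10 for CTSS. Relative to KRT8 and KRT18, the DLP log2 ratio of CTSZ was 0.99.

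CTSH, an aminopeptidase, stood apart in being higher mainly in the DLP. It had 13.1, 16.2 and 21.7 FPKM in WT AP, DLP and VP and 20.6, 49.8 and 26.4 FPKM in MYC AP, DLP and VP. Its ratio was 3.07 in DLP, 1.57 in AP and 1.22 in VP. In WT it was the one member with its highest value in the VP.

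CTSL and CTSK were the cysteine members of the 10 without a 2-fold difference in any lobe, although CTSK passed it in AP relative to KRT8 and KRT18 (log2 ratio 1.05). CTSL, an endopeptidase of broad range, had 68.7, 58.6 and 55.8 FPKM in WT AP, DLP and VP and 60.9, 39.8 and 43.1 FPKM in MYC. It was lower in MYC in each lobe, at 0.887, 0.678 and 0.771 times the WT value, although the AP direction turned when values were taken relative to KRT8 and KRT18 (log2 ratio 0.01). With CTSS higher and CTSL lower, the ratio of CTSS to CTSL was 0.241 in WT DLP and 3.02 in MYC DLP, 0.182 in WT VP and 1.31 in MYC VP, and 0.667 and 0.684 in the AP libraries. CTSL thus led CTSS in the WT lobes and in MYC AP, and CTSS led in MYC DLP and MYC VP.

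CTSK, a collagen-degrading enzyme best known from osteoclasts and also made by fibroblasts, had 7.30, 6.84 and 3.37 FPKM in WT AP, DLP and VP and 13.9, 8.27 and 2.88 FPKM in MYC. It was higher in MYC AP and DLP and slightly lower in MYC VP, where the counting interval of the ratio (0.688 to 1.05) spans 1. The 10 fibroblast and matrix genes compared did not move as one: 4 were at least 2-fold higher in AP (beside 2.05% of all genes), 3 were higher and 3 lower in DLP (beside 6.46% and 3.39%), and 5 were lower in VP (beside 5.95%), with median log2 ratios of 0.73, -0.08 and -1.01. COL1A2, a collagen gene, had log2 ratios of 1.41, 0.78 and -0.46 in AP, DLP and VP, and DCN, the most abundant of the list, had -0.09, -1.35 and -1.89. Their part in the CTSK values was not tested. CTSK and CTSS lie beside each other on chromosome 3, 17.4 kb apart in GRCm38 (95499210 to 95509387 and 95526786 to 95556405). The log2 ratios of CTSK and CTSS were 0.85 and -0.13 in AP, 0.24 and 3.00 in DLP and -0.17 and 2.36 in VP.

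CTSD, the main aspartic protease of the lysosome, was the most abundant cathepsin in every library. It had 146.4, 271.5 and 175.9 FPKM in WT AP, DLP and VP and 218.6, 347.6 and 345.3 FPKM in MYC, or between 34.7% and 55.6% of the summed cathepsin FPKM of a library. It was higher in MYC in each lobe by 1.28 to 1.96 times, and no lobe reached a log2 ratio of 1. CTSE, an aspartic protease of epithelial and immune cells, was among the least abundant, with 1.47, 1.79 and 0.420 FPKM in WT AP, DLP and VP and 6.75, 4.91 and 1.32 FPKM in MYC. The MYC value was higher in each lobe, by 4.59 times in AP, 2.74 in DLP and 3.14 in VP, with counting intervals of 3.60 to 5.95, 2.26 to 3.32 and 2.18 to 4.68. In VP its log2 ratio was 0.71, under the threshold, because both values are close to the pseudocount.

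CTSA, the protective protein of lysosomal beta-galactosidase and neuraminidase, had 23.0, 20.6 and 17.7 FPKM in WT AP, DLP and VP and 25.5, 37.9 and 33.4 FPKM in MYC. It was higher in MYC by 1.84 times in DLP and 1.89 times in VP, both short of 2-fold. Its partner genes did not share this: GLB1, the beta-galactosidase, had 47.1 FPKM in WT DLP and 23.7 in MYC DLP and 25.7 in WT VP and 14.9 in MYC VP, and NEU1, the neuraminidase, had 13.1 in WT VP and 8.76 in MYC VP.

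**Figure D4:**
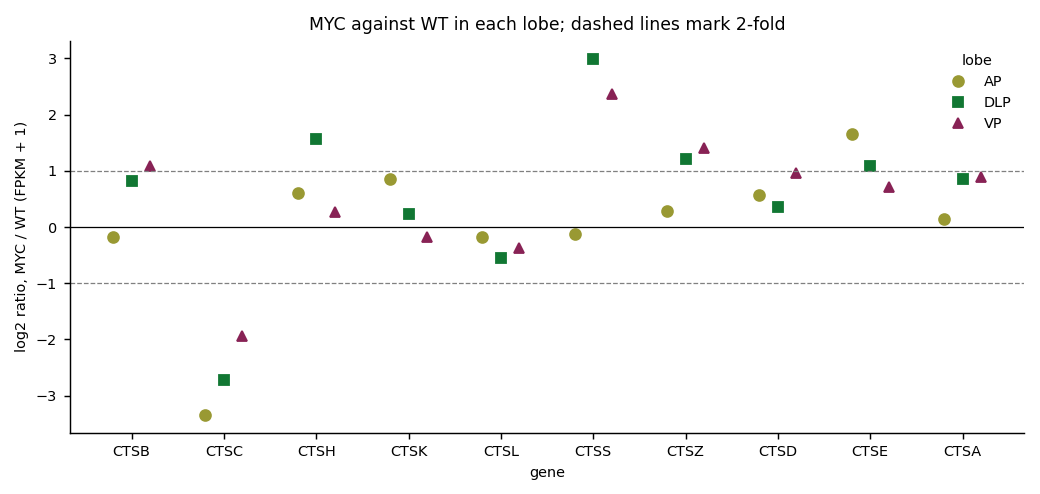
Log2 ratio of MYC against WT (vertical axis, FPKM + 1) of the 10 cathepsins, grouped by protease class along the horizontal axis, with 1 point per lobe and dashed lines at 2-fold. CTSC is below -1 in each lobe, CTSS reaches 3.00 in DLP and 2.36 in VP but -0.13 in AP, and CTSL lies between -0.55 and -0.17.

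Counted over the family on the log2 ratio with the pseudocount of 1, 3 of 10 members were at least 2-fold higher in MYC VP (CTSB, CTSS and CTSZ), beside 6.88% of all genes compared, and 1 was lower (CTSC), beside 5.95%. In DLP 4 were higher (CTSE, CTSH, CTSS and CTSZ), beside 6.46%, and 1 was lower, beside 3.39%. In AP 1 was higher (CTSE), beside 2.05%, and 1 was lower, beside 0.599%. Nothing is read from the lower counts, which are CTSC in each lobe. Relative to KRT8 and KRT18 the higher members were CTSH and CTSS in DLP, 2 in place of 4 (CTSE 0.96 and CTSZ 0.99), and 5 in place of 3 in VP, where CTSA (1.09) and CTSD (1.23) were added, and 2 in AP (CTSE and CTSK). The median log2 ratio of the 10 members was 0.80 in VP, 0.83 in DLP and 0.21 in AP, against 0.04, 0.03 and 0.13 for all genes compared. Summed over the 10 members, FPKM was 349.5 in WT VP and 656.1 in MYC VP (1.88 times), 488.6 and 794.2 in DLP (1.63 times) and 421.5 and 495.6 in AP (1.18 times).

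Among the lobes of the WT mouse and on the same scale, CTSS and CTSC were at least 2-fold lower in WT VP than in WT AP, which makes 2 of 10 members beside 10.3% of all genes, and none was higher, beside 7.89%. CTSS was also lower in WT DLP than in WT AP, 1 of 10 beside 1.31%, with none higher beside 3.85%. Between WT VP and WT DLP no member passed 2-fold on that scale, beside 2.63% of genes higher and 6.29% lower in VP. Without the pseudocount, WT VP was also lower by at least 2 times than both other lobes for CTSE (4.26 times below WT DLP) and for CTSK (2.03 times below WT DLP and 2.16 times below WT AP). WT VP held the lowest value of 8 of the 10 members among the WT lobes, beside 46.7% of all genes compared, and WT AP the highest of 7, beside 32.6%. Over all libraries 6 members had their highest value in MYC DLP, beside 18.6% of all genes, 2 in MYC AP (CTSE and CTSK) and 2 in WT AP (CTSC and CTSL).

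Other lysosomal genes had medians near those of all genes. Of 34 genes for other lysosomal hydrolases and their activators, 3 were at least 2-fold higher in VP, beside 6.88% of all genes. In DLP 4 were higher, beside 6.46%, and in AP none, beside 2.05%. None of these genes was 2-fold lower in VP, DLP or AP, beside 5.95%, 3.39% and 0.599% of all genes. Their median log2 ratios were -0.02 in VP, 0.07 in DLP and 0.22 in AP, against 0.04, 0.03 and 0.13 for all genes compared. LGMN, an asparaginyl endopeptidase that matures cathepsins and is high in macrophages, was among those higher, with 13.5 and 33.1 FPKM in WT and MYC VP and 22.0 and 59.9 FPKM in WT and MYC DLP. GRN, the progranulin gene, had 42.2 FPKM in the WT and 97.9 in the MYC ventral lobe, and PSAP, the saposin precursor, had 173.3 and 222.9. PPT1 and FUCA1 went the other way without reaching 2-fold, at log2 ratios of -0.89 and -0.81 in VP. Among 26 genes of the lysosomal membrane, sorting and acidification, 2 were higher by 2-fold in VP (SLC17A5 and NPC2), beside 6.88% of all genes. None was higher by 2-fold in DLP or AP, beside 6.46% and 2.05%. In VP of WT and MYC, LAMP1 had 145.3 and 146.8 FPKM, CD63 had 156.0 and 146.1, ATP6AP1 had 61.1 and 56.2 and LAMP2 had 99.8 and 57.9.

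CST3 and CSTB, the most abundant cystatins, differed by less than 2-fold between the mice. CST3 had 638.9, 821.3 and 295.7 FPKM in WT AP, DLP and VP and 563.6, 695.1 and 227.1 FPKM in MYC, which is lower in MYC in each lobe by less than 2-fold. The sum of the 7 cysteine cathepsins over CST3 was accordingly 0.526 in WT VP and 1.22 in MYC VP, 0.237 and 0.581 in DLP and 0.392 and 0.434 in AP. CSTB, the cytosolic inhibitor, stayed between 98.4 and 160.4 FPKM, and SERPINB6A, a serine protease inhibitor, had 81.7 FPKM in MYC VP against 126.8 in WT VP. CST7, an inhibitor made by lymphocytes and myeloid cells, had 0.380 FPKM in WT DLP and 3.76 in MYC DLP, the one of 4 inhibitors compared that differed by 2-fold in that lobe, beside 6.46% of all genes.

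Other cathepsins in the table had at most 16.7 FPKM, and most of them were at or near 0. CTSW, expressed by cytotoxic lymphocytes, had 1.87, 2.41 and 0.947 FPKM in WT AP, DLP and VP and 2.20, 7.89 and 4.17 FPKM in MYC, with log2 ratios of 1.38 in DLP and 1.41 in VP. The lymphocyte gene CD3E had 1.98 and 10.1 FPKM in WT and MYC DLP and 0.531 and 2.43 FPKM in VP, and its part in the CTSW values was not tested. CTSF and CTSO did not differ by 2-fold in any lobe, with 2.42 to 16.7 FPKM. CTSG, a neutrophil granule protease and itself activated by CTSC, had at most 0.148 FPKM. The 9 other members of that list, most of them placental cathepsins, did not reach 0.02 FPKM.

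Promoter windows of RefSeq (GRCm38.p6, 250 bases before to 50 after the start, read along the gene) were available for 7 of the 10 members; CTSB, CTSE and CTSH had no entry. They were searched on both strands for CACGTG, the E-box bound by MYC and by the lysosomal regulators TFEB and TFE3, for its extension TCACGTGA, which contains it, and for GAGGAAGT, a form of the site of the myeloid factor PU.1. CACGTG was found in CTSA, CTSD and CTSL and in 7.15% of 32851 windows, TCACGTGA in CTSA and CTSD and in 0.974%, and GAGGAAGT in CTSC and CTSS and in 3.20%. These shares are per window. CTSA has a window starting at 164832622 on chromosome 2 without a match and another starting at 164833523 with both CACGTG and TCACGTGA. A match is a description of letters and not of a bound site. The windows of CTSC (chr7:88277835-88278134, + strand), CTSS (chr3:95526536-95526835, + strand) and CTSD (chr7:142387778-142388077, - strand) are shown because they belong to the member that was near 0 in MYC, the member that was highest over WT and the most abundant member, with the matches in capitals.
CTSC: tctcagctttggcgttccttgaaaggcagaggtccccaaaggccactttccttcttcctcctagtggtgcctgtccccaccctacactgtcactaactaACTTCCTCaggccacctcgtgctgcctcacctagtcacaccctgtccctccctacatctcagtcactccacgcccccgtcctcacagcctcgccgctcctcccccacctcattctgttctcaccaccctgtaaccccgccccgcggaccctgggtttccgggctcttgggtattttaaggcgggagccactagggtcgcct
CTSS: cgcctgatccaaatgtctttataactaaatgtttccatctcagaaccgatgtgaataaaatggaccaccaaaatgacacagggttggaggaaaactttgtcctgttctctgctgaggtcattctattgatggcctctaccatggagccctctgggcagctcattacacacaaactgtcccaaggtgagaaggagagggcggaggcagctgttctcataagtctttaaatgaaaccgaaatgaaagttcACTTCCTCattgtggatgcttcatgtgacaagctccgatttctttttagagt
CTSD: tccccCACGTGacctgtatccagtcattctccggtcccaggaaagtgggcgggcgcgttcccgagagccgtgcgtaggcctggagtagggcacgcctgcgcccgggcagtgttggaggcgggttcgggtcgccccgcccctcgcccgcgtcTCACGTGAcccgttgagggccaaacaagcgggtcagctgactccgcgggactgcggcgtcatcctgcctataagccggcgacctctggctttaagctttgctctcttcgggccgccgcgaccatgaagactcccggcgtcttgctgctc
The match in CTSC lies at position -151 and that in CTSS at -2, counted from the transcript start as 0. Whether these letters bear on the values of either gene was not tested.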

How the data were processed

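Bulk RNA-seq of 3 prostate lobes from 1 WT and 1 MYC mouse was re-analysed, 1 library per lobe and genotype. The authors aligned single-end reads with STAR and quantified genes with Cufflinks, on build mm10 (GRCm38) per the submitters' processing notes, and the deposited values are FPKM, not read counts. The annotation and the use of strand in counting are not given in the sources used here. Groups were taken from sample titles. Members and gene lists were chosen with earlier results of these data known. FPKM were used as deposited, log2 ratios had a pseudocount of 1, genes compared had a mean of at least 1 FPKM, and the threshold was 2-fold; no test was run. Genes were named as the members, the other cathepsins and inhibitors at a mean of at least 1 FPKM, the 4 most abundant of each other list (those of the marker lists by summary), the genes within 2 Mb of CTSC, and the 5 most like it. GLB1, NEU1, LGMN, SLC17A5, NPC2, CSF3R, ELANE, PRTN3, CMA1, GZMA, FCER1G, CD68, CD163 and MRC1 were added after their values were seen. Depth was estimated from low FPKM (under 0.3) of single-transcript, single-exon genes over 600 bases, less 200 bases. Between 33.3% and 50.3% of these values were whole reads within 0.03. Estimated reads used the longest GENCODE M1 transcript (for CTSC also the length at which its lowest values are 1 read) and served for exact 95% Clopper-Pearson intervals, which cover counting error. Of the symbols, 24340 matched RefSeq (GRCm38.p6), the source of coordinates. Calculations were checked on simulated data. Alternatives were 4 scalings, a pseudocount of 0.1, a minimum mean of 10 FPKM and a 4-fold threshold. Software was matplotlib 3.10.9, scipy 1.17.1, pandas 2.3.3 and numpy 2.4.6 under Python 3.11.15.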

Additional observations from a re-analysis of the deposited data

Results flagged for a closer look

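Some members lay on opposite sides of 0 in different lobes, with log2 ratios at least 1 apart. These differences between lobes were not tested, since each rests on 1 library per lobe and genotype. CTSS had -0.13 in AP against 3.00 in DLP, a difference of 3.13, and against 2.36 in VP, a difference of 2.495. CTSB had -0.18 in AP and 1.09 in VP, a difference of 1.27. CTSK went the other way, with 0.85 in AP and -0.17 in VP, a difference of -1.02. Relative to KRT8 and KRT18 the AP ratios of CTSS and CTSB and the VP ratio of CTSK turned to 0.05, 0.00 and 0.02.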

How the results depend on the processing

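No paired analysis was possible because the lobes of each genotype come from 1 mouse, so that pairs of lobes are not independent replicates. Of 120 member ratios under 3 scalings and a pseudocount of 0.1, 5 changed direction, and 0 of these were 2-fold as deposited. The scaling without the 20 highest genes was run on counts of members and not on single ratios. Of 42 counts of members under alternatives, 29 stayed within 1.5 times. A 4-fold threshold left 1 member in AP, 2 in DLP and 1 in VP for MYC against WT, from 2, 5 and 4, and 1 for WT VP against AP and 0 for WT DLP against AP. Members with a mean of at least 10 FPKM gave 0 in AP, 3 in DLP and 1 for WT VP against AP. Relative to KRT8 and KRT18 there were 3 in DLP, and 9 and 10 for WT VP against AP and DLP, where this scaling moved the median of all genes by -1.28 in both. A pseudocount of 0.1 gave 4 for WT VP against AP and 1 against DLP. Equal sums moved the VP median of MYC against WT by -0.19. CTSC, RAB38 and CTSE are limited by depth, with few reads in the lower library.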

Other observations

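Beside CTSC and RAB38, the 3 genes with at least 1 FPKM in every WT lobe and a lowest WT value at least 2 times the highest MYC value were CRELD2, DERL3 and XLR3A. CRELD2 and DERL3, both genes of the endoplasmic reticulum, had 224.3 to 299.6 and 137.5 to 239.3 FPKM in WT and 53.2 to 94.2 and 29.3 to 40.5 FPKM in MYC. XLR3A, an X-linked lymphocyte-regulated gene, had 13.0 to 16.5 FPKM in WT and 1.87 to 6.34 in MYC. Unlike CTSC and RAB38, all 3 kept more than 1 FPKM in each MYC library.

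Of the neutrophil genes, S100A8 and S100A9 had 18.0 and 16.6 FPKM in MYC DLP, and in the other 5 libraries S100A8 had 0.263 to 2.53 FPKM and S100A9 at most 0.952. In MYC VP, where CTSS was 5.55 times the WT value, S100A9 is listed at 0, while CSF3R, the receptor of granulocyte colony-stimulating factor, had 1.25 FPKM there against 0.298 in WT VP.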
